A study of Homo sapiens with 6 samples.

Results

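The genes examined here encode 8 enzymes of haem synthesis, ALAS1, ALAS2, ALAD, UROS, UROD, CPOX, PPOX and FECH, together with HMOX1, which encodes the inducible haem oxygenase that breaks haem down. These 9 genes were taken by symbol from the 26485 symbols of the deposited count tables, and all 9 were also among the 28069 genes of the deposited tables of estimated counts, TPM (a transcript level corrected for gene length and library size) and FPKM. RNA was sequenced from K562, an established human myeloid leukaemia line with erythroid features, grown in IMDM with fetal bovine serum. The series concerns the zinc-finger protein ZNF410 and compares cells with a non-targeting guide (sgNeg2, labelled WT) with cells carrying sgRNA1 or sgRNA2, both labelled ZNF410 KO. Each of the 3 groups had 2 libraries, numbered replicate 1 and replicate 2. The labels do not say how Cas9 and the guides were delivered, whether a line is a clone, or whether the replicates are separate cultures, so p-values measure only the spread between these libraries.

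Haem is built from glycine and succinyl-CoA in a chain of steps that begins and ends in the mitochondrion and passes through the cytosol. The first step, made by 5-aminolevulinate synthase, limits the rate, and mammals have a housekeeping form (ALAS1, repressed by haem) and an erythroid form (ALAS2, driven by GATA1 and controlled by iron at translation). ALAD then joins 5-aminolevulinate into porphobilinogen, UROS closes the tetrapyrrole ring, UROD, CPOX and PPOX trim and oxidise it, and FECH inserts iron. Erythroid cells raise the whole chain to supply haemoglobin. HMOX1 opens the haem ring, and its product is reduced to bilirubin by the biliverdin reductases.

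The promoters of 7 of the 9 genes were found in a RefSeq table (build GRCh38.p14), with a pair of starts each for ALAD and PPOX. Those of ALAS2 and FECH, the members that differed most between libraries, and of CPOX, which holds the same number of GATA motifs as ALAS2, are shown so that the motifs can be read in place. Each line gives the 250 bases before the start, 5′ to 3′ on the gene's strand, which is the minus strand for all 3, at chrX:55030978-55031227, chr3:98593612-98593861 and chr18:57586703-57586952. Capitals mark GATAA, the core motif of GATA factors, on this strand or, as TTATC, on the other.
ALAS2: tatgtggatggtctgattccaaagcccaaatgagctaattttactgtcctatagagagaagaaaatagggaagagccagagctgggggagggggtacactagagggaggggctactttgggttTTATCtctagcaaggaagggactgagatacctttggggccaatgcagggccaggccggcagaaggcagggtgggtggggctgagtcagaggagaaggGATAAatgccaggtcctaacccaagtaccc
CPOX: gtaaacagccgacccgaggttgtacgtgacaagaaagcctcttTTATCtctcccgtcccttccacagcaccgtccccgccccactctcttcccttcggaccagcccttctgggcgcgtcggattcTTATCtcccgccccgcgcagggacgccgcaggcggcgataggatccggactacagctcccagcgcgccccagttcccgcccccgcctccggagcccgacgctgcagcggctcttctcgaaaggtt
FECH: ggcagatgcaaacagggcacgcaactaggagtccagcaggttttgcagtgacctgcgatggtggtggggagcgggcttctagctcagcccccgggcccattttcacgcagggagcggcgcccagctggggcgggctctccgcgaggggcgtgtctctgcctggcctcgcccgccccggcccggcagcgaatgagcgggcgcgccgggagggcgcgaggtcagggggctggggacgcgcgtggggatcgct
The ALAS2 window held 2 GATAA matches, 1 on the opposite strand 127 to 123 bases before the start and 1 on the gene's own strand 30 to 26 bases before it. CPOX held 2, both on the opposite strand, at 207 to 203 and 125 to 121 bases before the start. PPOX held 1 at the second of its starts, and the windows of ALAS1, ALAD, UROD and FECH held none. Among 27305 genes with such a window, 21.0% had GATAA on either strand. A GC-rich motif of KLF factors, CCNCNCCC, was present for 6 of these 7 genes (all but UROD, and for PPOX only at the second start) and in 52.4% of all windows. The shares over all genes use 1 window per gene, whereas ALAD and PPOX were searched at both starts, so the counts are not fully alike. The antioxidant response motif TGACNNNGC had 1 match each for ALAS2 and FECH, against 11.0% of all windows. These matches are letters in a window and were not linked to binding.

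Total gene counts were 8788816 to 9537470 per library. ZNF410 itself was lower in the knockout libraries, at 17.0 to 24.5 CPM (counts scaled for library size) against 34.0 and 38.2 in the controls, a log2 fold change of -0.83 (SE 0.125, edgeR adjusted p = 0.00226 with a replicate block, 0.0760 without control replicate 1). CHD4, a chromatin remodeller subunit gene known as a ZNF410 target, had a log2 fold change of -1.04 (SE 0.0467, edgeR adjusted p = 1.38e-08 with the block). Libraries with the same replicate number resembled one another more than libraries of one group. The summed TPM of 8 erythroid markers, globin genes among them, was 18861 to 26716 in the replicate 1 libraries and 45277 to 61845 in the replicate 2 libraries. Markers of other blood lineages were low, and their summed TPM moved the other way. For 6 megakaryocyte genes (GP9 and PF4 at 0 counts) it was 10.3 to 14.8 in replicate 1 and 2.43 to 2.94 in replicate 2. It was 12.8 to 17.5 and 3.63 to 5.89 for 6 monocyte and granulocyte genes (ELANE at 0). For 4 lymphocyte genes (MS4A1 at 0) it was 0.98 to 1.28 and 0.39 to 0.55. Of these lists 2, 2 and 1 genes were tested between the replicate numbers. ITGA2B and LYZ alone were called lower in replicate 2, against 23.5% of all genes. GP1BA was higher in replicate 2 in the control and under sgRNA2, and ITGAM under both guides. The sum of 3 fibroblast genes was 0.13 to 0.22 TPM in the controls and 0.35 to 0.49 TPM in the knockout libraries, with DCN at 0. Of these COL1A1, a collagen gene, had 0 and 0.106 CPM in the controls and 0.869 to 1.54 CPM in the knockout libraries. These levels are near the limit of detection, and COL1A1 passed the filter on counts only through the knockout libraries, so no p-value is given. The part of COL1A1 in the knockout differences was not tested. The liver genes ALB, APOA1 and SERPINA1 had no counts, and their summed TPM was 0 to 0.16.

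Along the pathway the levels were uneven, and UROD stood far above the rest. In the control libraries UROD, which removes carboxyl groups from uroporphyrinogen, was at 403 ± 29.5 TPM (SD, n = 2), 9.84 times the next gene. ALAS1 followed at 41.0 ± 7.32 TPM, UROS at 39.0 ± 3.53 and CPOX at 37.4 ± 4.12. FECH was at 31.3 ± 20.3 TPM, ALAS2 at 21.8 ± 15.1, ALAD at 15.0 ± 7.60 and PPOX at 14.2 ± 3.28. Below UROD the control values of each gene overlapped those of its neighbour in this order. UROD exceeded ALAS1, UROS exceeded CPOX and ALAS2 exceeded ALAD in all 6 libraries, whereas ALAS1 exceeded UROS in 2 and ALAD exceeded PPOX in 1. Together the 9 genes made up 0.0514% to 0.0734% of all TPM.

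**Figure D1:**
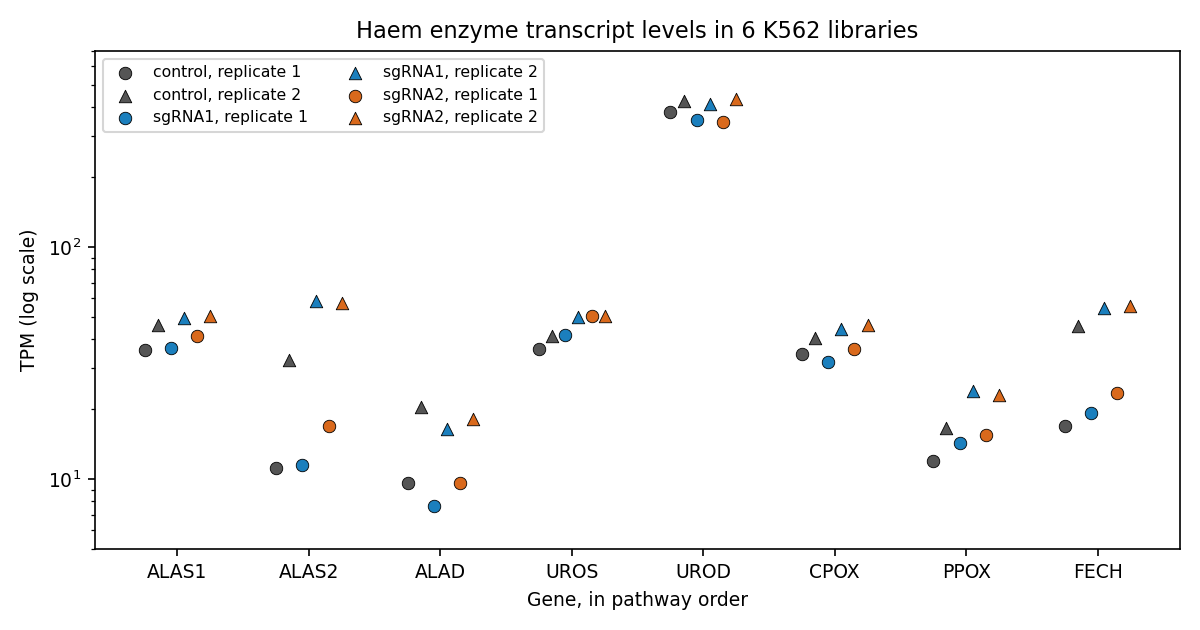
Deposited TPM (log axis) of the 8 detected genes in pathway order, 1 point per library, with colour for the guide and shape for the replicate number. UROD lies between 347 and 434 TPM, and the replicate 2 points lie above the replicate 1 points for every gene shown but UROS.

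The members also differed in how steady they were. Across the 6 libraries the highest TPM exceeded the lowest 1.25 times for UROD, 1.38 times for UROS, 1.41 times for ALAS1 and 1.44 times for CPOX. The ratio was 2.01 for PPOX, 2.66 for ALAD, 3.27 for FECH and 5.23 for ALAS2. FECH and ALAS2, at the last step and the erythroid first step, had wider ranges than ALAS1, the housekeeping first step.

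ALAS2 (X:55009055-55030977) had 136 counts in control replicate 1 and 332 in control replicate 2. The sgRNA1 libraries had 126 and 664 counts, and the sgRNA2 libraries 190 and 628. Scaled for library size, these were 15.7 and 35.0 CPM, 13.9 and 69.6 CPM, and 20.5 and 68.3 CPM. All replicate 2 libraries were above all replicate 1 libraries, and the highest values were those of the knockout libraries of replicate 2. In a fit with guide and replicate number, ALAS2 was 3.38-fold higher in replicate 2, a log2 difference of 1.76 (SE 0.152, edgeR adjusted p = 5.80e-07). That was above 99.7% of the 12282 genes tested. The log2 difference was 1.15 in the control, 2.31 under sgRNA1 and 1.72 under sgRNA2. In these bulk libraries a change in the share of cells that express a gene and a change in RNA per cell cannot be told apart.

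FECH (18:57544377-57586702) had 767 and 2061 counts in the controls, 865 and 2704 under sgRNA1, and 1086 and 2486 under sgRNA2, or 88.5 and 217 CPM, 95.2 and 284 CPM, and 117 and 270 CPM. Here too every replicate 2 library was above every replicate 1 library. FECH was 2.56-fold higher in replicate 2 (log2 difference 1.36, SE 0.0678, edgeR adjusted p = 3.11e-09), with 1.30, 1.57 and 1.20 within the control, sgRNA1 and sgRNA2 groups. ALAD (9:113386312-113401284) had 20.9 and 40.4 CPM in the controls, 16.5 and 33.0 under sgRNA1, and 20.1 and 39.3 under sgRNA2. Its values also separated by number, and the difference was nearly the same in each group, at 0.95, 0.99 and 0.96 on the log2 scale (fitted 0.97, SE 0.0982, edgeR adjusted p = 2.62e-06). PPOX (1:161165728-161178013), which oxidises protoporphyrinogen, had 21.2 and 25.3 CPM in the controls, 20.4 and 39.1 under sgRNA1, and 23.8 and 41.6 under sgRNA2. Its log2 difference was 0.68 (SE 0.124, edgeR adjusted p = 0.000506), with 0.25 in the control against 0.93 and 0.80 with the guides.

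The other genes differed less between the numbers. ALAS1 (3:52198083-52214327) had a log2 difference of 0.25 (SE 0.0684, edgeR adjusted p = 0.00767), UROD (1:45012254-45015575) 0.21 (SE 0.0527, 0.00556) and CPOX (3:98570488-98593611) 0.26 (SE 0.0762, 0.0117). UROS (10:125784980-125823258) had 0.15 (SE 0.0801) and did not pass the test (edgeR adjusted p = 0.155). In all, 7 of the 8 tested genes were called higher in replicate 2 than in replicate 1 and none lower. Over all genes 45.0% were called, 21.6% as higher and 23.5% as lower in replicate 2. ALAS2 and FECH were called at 2-fold or more, as were 7.49% of all genes. The median log2 difference was 0.47 over the 8 genes and -0.00 over all tested genes. In 6 of them, all but ALAS1 and UROS, the 3 replicate 2 libraries were above the 3 replicate 1 libraries, as they were in 25.6% of all genes. Calls for ALAS1 and UROD were lost without either sgRNA1 library (edgeR adjusted p = 0.0987 and 0.111 for ALAS1, 0.0656 and 0.0625 for UROD), and that of CPOX without any 1 of the 4 knockout libraries (0.0517 to 0.131). DESeq2 did not call ALAS1 (0.0785) or CPOX (0.0687), and limma with no filter on FPKM did not call UROD (0.115) or CPOX (0.0634). Of the 8 erythroid markers 7, all but GYPC, were called higher in replicate 2, against 21.6% of all genes. Their part in the split of the haem genes was not tested.

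**Figure D2:**
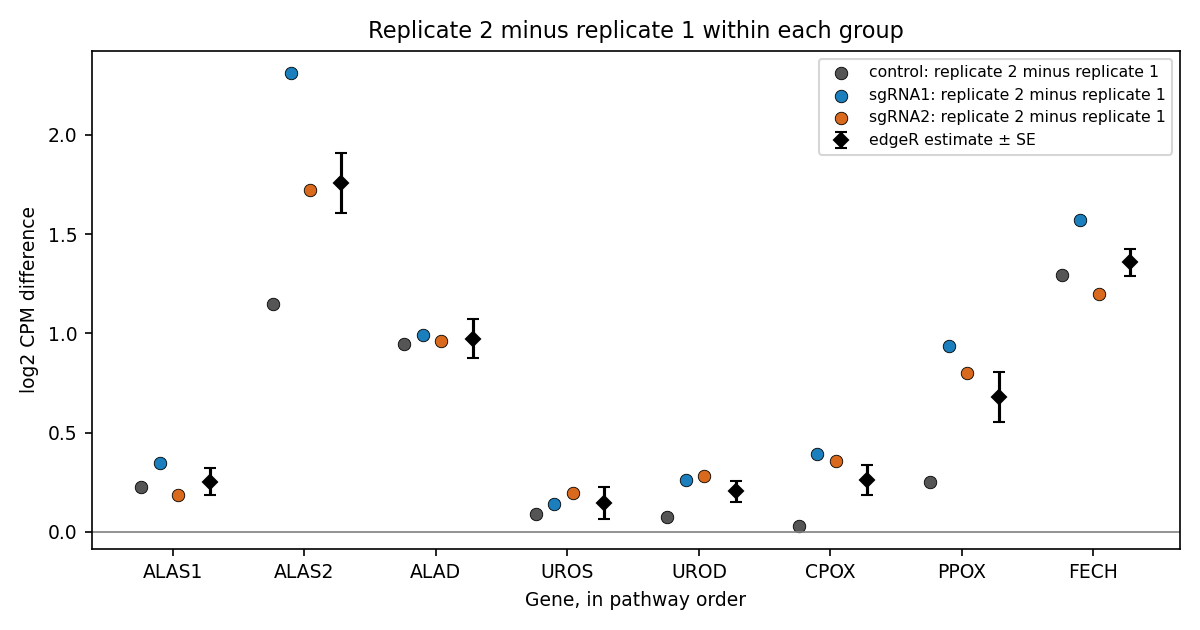
Log2 CPM of replicate 2 minus replicate 1 within each group (points) and the edgeR estimate with its standard error (diamond), by gene in pathway order. ALAS2 and FECH have the largest estimates, 1.76 and 1.36, and every gene shown but ALAS1 and FECH has larger values under both guides than in the control, by little in ALAD and UROS.

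The balance of the synthase genes differed between the numbers. ALAS2 made up 23.7% of the summed ALAS1 and ALAS2 TPM in control replicate 1 and 41.3% in control replicate 2. With sgRNA1 the shares were 23.9% and 54.2%, and under sgRNA2 29.1% and 53.2%. In TPM terms ALAS2 was therefore above ALAS1 only in the replicate 2 knockout libraries, at 1.18 and 1.13 times ALAS1, against 0.704 times in control replicate 2. ALAS1 alone had 35.8 and 46.2 TPM in the controls, 36.5 and 49.3 under sgRNA1, and 41.1 and 50.5 under sgRNA2.

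**Figure D3:**
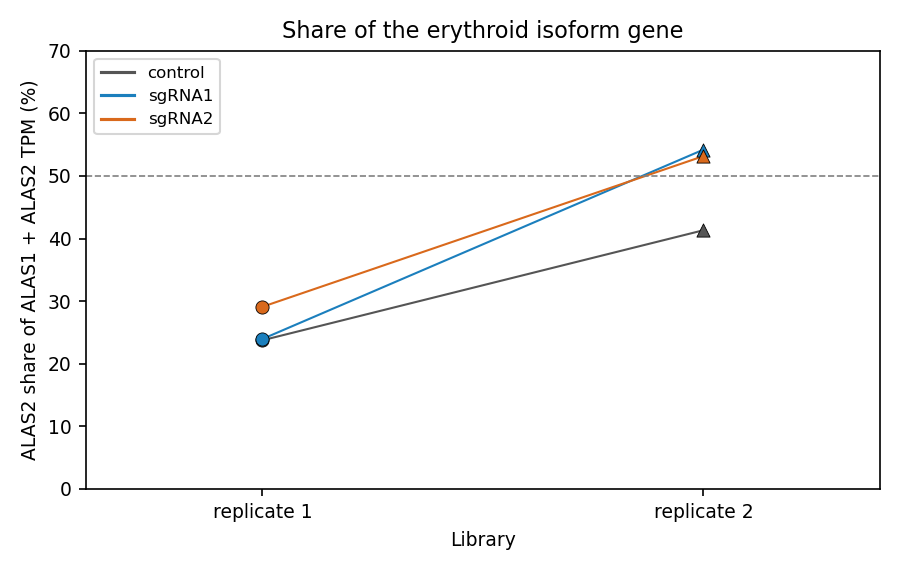
ALAS2 as a percentage of the summed ALAS1 and ALAS2 TPM in each library, with a line joining the replicates of a group and a dashed line at equal levels. The replicate 2 knockout libraries, at 54.2% and 53.2%, are the ones above the dashed line.

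ZNF410 knockout was compared with the control in 4 against 2 libraries. Without a term for the replicate number no haem gene was called, and neither was any of the 12282 genes (0% called by edgeR, 284 with an unadjusted p under 0.05, 19 called by DESeq2). With the replicate number as a block, FECH alone of the 8 genes was called, where 1.84% of all genes were, 1.19% as higher and 0.651% as lower. FECH was higher than the control of the same number in all 4 knockout libraries, by 0.11 and 0.38 on the log2 scale under sgRNA1 and by 0.41 and 0.31 under sgRNA2 (replicates 1 and 2). The blocked log2 fold change was 0.31 (SE 0.0745, edgeR adjusted p = 0.0472, against 1.00 without the block). The call was at the edge of the threshold. It held with DESeq2 (0.0270) and with the estimated counts (edgeR, 0.0172, where 3.03% of all genes were called), was lost with limma on FPKM (0.0895), and was lost without any 1 library other than sgRNA1 replicate 1 (edgeR, 0.0642 to 0.257).

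UROS, the ring-closing enzyme, had 35.4 and 37.7 CPM in the controls, 45.0 and 49.7 under sgRNA1, and 42.0 and 48.1 under sgRNA2. All 4 knockout libraries were above both controls, a separation found, in either direction, in 9.44% of all genes and in no other member. The blocked log2 fold change was 0.34 (SE 0.0828) and missed the threshold (edgeR adjusted p = 0.0535). UROS overlaps a microRNA gene on the opposite strand, and the strand setting of the counting is not given in the sources used here.

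ALAS2 had the largest fold change of the 8 genes and the widest spread. Its paired log2 differences were -0.18 and 0.99 under sgRNA1 and 0.38 and 0.96 under sgRNA2, so both replicate 2 libraries were about 1 log2 unit above their control while the replicate 1 libraries lay on either side of theirs. The blocked log2 fold change was 0.66 (SE 0.165, edgeR adjusted p = 0.0594). It became a call with the estimated counts (edgeR, 0.0184), without control replicate 1 (0.97, edgeR adjusted p = 0.000687) and without sgRNA1 replicate 1 (0.78, 0.00462), and it fell to 0.13 (0.808) without control replicate 2. PPOX had -0.06 and 0.62 under sgRNA1 and 0.16 and 0.71 under sgRNA2, again larger in replicate 2. Its blocked log2 fold change was 0.39 (SE 0.133, edgeR adjusted p = 0.205), and it was called with the estimated counts (edgeR, 0.0366) and without control replicate 1 (edgeR, 0.0213), while without control replicate 2 it was 0.0564 (edgeR adjusted p = 0.916).

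ALAS1 was above its control in all 4 pairs, by 0.09 to 0.28 on the log2 scale, with a blocked log2 fold change of 0.20 (SE 0.0742, edgeR adjusted p = 0.230) that was 0.11 on estimated counts and 0.12 with limma. ALAD was the one gene below its control in all 4 pairs, at -0.33 and -0.29 under sgRNA1 and -0.05 and -0.04 under sgRNA2. Its blocked value was -0.17 (SE 0.113, edgeR adjusted p = 0.574). All 4 pairs were higher in 16.2% of genes and lower in 14.9%. CPOX, at 0.07 (SE 0.0783, edgeR adjusted p = 0.788), and UROD, at -0.07 (SE 0.0551, 0.636), were the nearest to 0. The median blocked log2 fold change was 0.26 over the 8 genes and 0.00 over all tested genes. The erythroid marker sum was 24396 to 61845 TPM in the knockout libraries and 18861 to 45277 in the controls, and 5 of the 8 markers, HBG1, HBG2, HBE1 and HBZ among them, rose with the block, against 1.19% of all genes. Their part in the FECH difference was not tested.

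**Figure D4:**
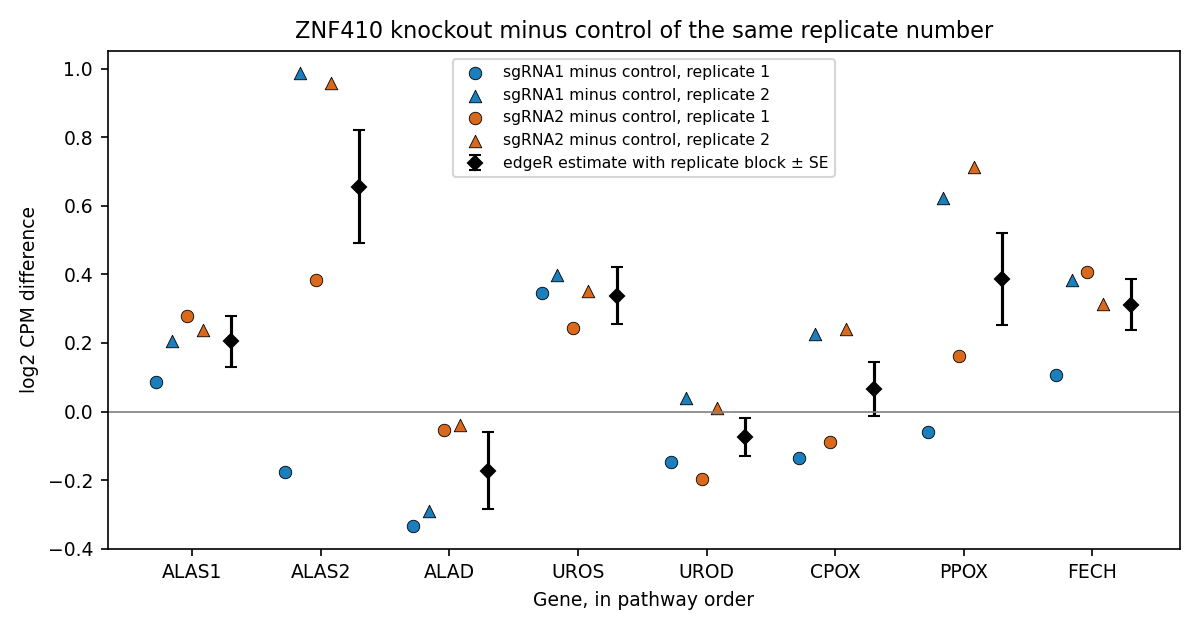
Log2 CPM of each knockout library minus the control library of the same replicate number, by gene in pathway order, with the blocked edgeR estimate and its standard error (diamond). FECH, UROS and ALAS1 have all 4 points above 0 and ALAD has all 4 below, while the replicate 2 points of ALAS2 and PPOX lie above their replicate 1 points.

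By guide, no haem gene was called under sgRNA1 in the blocked fit, where 0.887% of all genes were, and FECH was called under sgRNA2, where 1.38% were, 0.871% as higher. FECH had a blocked log2 fold change of 0.36 (SE 0.0826, edgeR adjusted p = 0.0474) under sgRNA2 and 0.26 (SE 0.0826, 0.221) under sgRNA1. The sgRNA2 call was lost with DESeq2 (0.104), limma (0.126) and without sgRNA2 replicate 1 (edgeR, 0.264). ALAS2 had 0.74 (SE 0.186, edgeR adjusted p = 0.0730) under sgRNA2 and 0.56 (SE 0.187, 0.260) under sgRNA1. For sgRNA2 it was called with the estimated counts (edgeR, 0.0265), where 289 of all genes were called. Blocked fits that left out a library gave ALAS2 0.21 to 1.05 for sgRNA2, lowest without control replicate 2. For sgRNA1 such fits gave ALAS2 -0.0022 to 0.89, lowest without sgRNA1 replicate 2. In the same fits PPOX ranged from -0.0199 to 0.59 for sgRNA1 and from 0.13 to 0.74 for sgRNA2, lowest without control replicate 2 for each guide. The guides share their control libraries. Compared directly, sgRNA2 minus sgRNA1 ranged from -0.07 (SE 0.0965) for UROS to 0.27 (SE 0.120) for ALAD on the log2 scale, and no member was called (edgeR adjusted p = 0.999 for all 8, blocked), against 0.0896% of all genes (0.0570% higher, 0.0326% lower). These errors do not show that the guides act alike.

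Whether the knockout difference itself depended on the replicate number was examined with an interaction term. It was 0.84 (SE 0.245) for ALAS2, 0.61 (SE 0.214) for PPOX and 0.35 (SE 0.126) for CPOX on the log2 scale, and 0.20 (SE 0.0966) for UROD, in each case higher in replicate 2. None passed the threshold (edgeR adjusted p = 0.273, 0.379, 0.398 and 0.609), and 0.244% of all genes did. For ALAS2 and PPOX the term was smaller with the estimated counts, at 0.57 and 0.24. The 4 other genes had terms of 0.03 to 0.08.

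HMOX1 (22:35381096-35394207) had 0 counts, 0 estimated counts and 0 TPM in all 6 libraries. A count of 0 allows up to 3 counts, or 0.315 to 0.341 CPM of each library's total gene count (without TMM scaling), for counting error only. Its neighbours on the chromosome were counted, with 116 to 153 counts for TOM1 upstream and 2146 to 2931 for MCM5 downstream. HMOX1 was not tested, and no difference by guide or number could be detected at this depth. HMOX2, the constitutive haem oxygenase, was at 1.61 CPM in control replicate 1, at 28.6 CPM in control replicate 2 and at 1.68 to 2.53 CPM in the knockout libraries. Its blocked call (log2 fold change -2.52, SE 0.571, edgeR adjusted p = 0.0337) rests on control replicate 2, since the value was 0.43 (0.785) without it. With the estimated counts it was -0.15 (edgeR adjusted p = 0.234), and the whole-number counts of HMOX2 were 0.0454 times the estimated ones, against a median of 0.549 over 9619 genes.

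Downstream of the oxygenases, both biliverdin reductase genes were higher in knockout. BLVRA had 31.4 and 28.4 CPM in the controls, 47.9 and 40.2 under sgRNA1, and 46.2 and 36.5 under sgRNA2. BLVRA thus had every knockout library above both controls, a separation found, in either direction, in 9.44% of all genes. Its blocked log2 fold change was 0.51 (SE 0.0913, edgeR adjusted p = 0.00847, 0.125 without control replicate 1). BLVRB, abundant in red cells, had 245 and 264 CPM in the controls and 289 to 325 CPM in the knockout libraries (0.27, SE 0.0508, edgeR adjusted p = 0.0113, with 0.0700 and 0.0814 without control replicates 1 and 2). Of the 17 genes listed for haem breakdown and the NRF2 response, which haem induces, these 2 rose and HMOX2 fell in the blocked fit, with a median log2 fold change of 0.03 over the 17 and 1.84% of all genes called. On estimated counts BLVRA, BLVRB and FTL, the ferritin light chain (0.20, edgeR adjusted p = 0.0312), were called higher, NFE2L2, which encodes NRF2, was called lower (-0.24, 0.0166), and HMOX2 was not called, where 3.03% of all genes were. Between the numbers 11 of the 17 were higher in replicate 2 and 3 lower (median 0.25), against 21.6% and 23.5% of all genes. HMOX2 was among the 11 (1.66, edgeR adjusted p = 0.0468), but it was -0.34 (0.582) without control replicate 2 and 0.07 (0.281) on estimated counts, where 10 of the 17 were higher and 3 lower, against 25.5% and 27.1% of all genes. The genes called on both kinds of count included FTH1, the ferritin heavy chain, at 0.60 (SE 0.0426, edgeR adjusted p = 8.31e-08) and SLC7A11, the cystine transporter, at -1.21 (SE 0.0982, edgeR adjusted p = 3.25e-07).

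Of 16 genes listed for transport of haem, its precursors and iron into the pathway, 15 were tested and 1 rose with knockout in the blocked fit, where 1.84% of all genes were called. That was ABCB6, a porphyrin transporter, with 22.5 and 37.7 CPM in the controls, 26.9 and 52.6 under sgRNA1, and 30.0 and 56.8 under sgRNA2. Its values overlapped between the groups but were above the control of the same number in all 4 pairs (log2 fold change 0.45, SE 0.0963, edgeR adjusted p = 0.0257, lost without control replicate 2 at 0.278 and without sgRNA1 replicate 2 or either sgRNA2 library). Of the transport genes 5 were higher in replicate 2 (ABCB6 0.88, FAM210B 0.63, ABCB10 0.59, FLVCR1 0.36 and SLC25A38 0.27 on the log2 scale) and 3 lower (TSPO -0.82, SLC48A1 -0.65 and PGRMC1 -0.15), against 21.6% and 23.5% of all genes. On estimated counts 7 of the 15 were called higher in replicate 2, GLRX5 and SLC25A37 in addition, and 3 lower, with CLPX in place of PGRMC1. The median of the 15 was 0.05 for knockout and -0.01 for the number. Of 9 erythroid transcription factors none was called for knockout in the blocked fit on whole-number counts, while on estimated counts TAL1 (0.25, edgeR adjusted p = 0.0291) and ZFPM1 (0.40, 0.0343) were called higher, where 3.03% of all genes were called. In replicate 2, 4 of the 9 were higher (TAL1 at 0.56, KLF1, GFI1B and LDB1) and 3 lower (GATA1 at -0.15, NFE2 and RUNX1), against the same 21.6% and 23.5% of all genes. RUNX1 differed by -0.80, -0.67 and -0.77 on the log2 scale within the control, sgRNA1 and sgRNA2 groups. Of 5 ALAS1 regulators 4 were tested, none was called for knockout, and SIRT1 was higher in replicate 2 by 0.23. On estimated counts NRF1 was also called higher in replicate 2 (0.30, edgeR adjusted p = 0.00557) and NR1D1 lower (-0.45, 0.0125), against 25.5% and 27.1% of all genes.

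The genes whose log2 CPM over the 6 libraries followed ALAS2 most closely, among 9965 with a mean of at least 50 counts, were UBR1 (Pearson r = 0.997), CIRH1A (0.997), FASTKD3 (0.995), NOP58 (0.994) and UBE2Q2 (0.990). Among the members FECH ranked 39th (0.978), PPOX 76th (0.971) and CPOX 338th (0.942), and UROS was the least like ALAS2 at 3238th (0.609). The libraries share the split by number, so these values describe likeness over 6 points. UBR1, a ubiquitin ligase gene, ran from 47.2 CPM in sgRNA1 replicate 1 to 69.0 CPM in sgRNA2 replicate 2, a much smaller range than that of ALAS2.

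The whole-number counts of the members were 0.524 to 0.643 times the estimated counts, except for PPOX at 0.807. PPOX overlaps B4GALT3 and ALAS2 overlaps APEX2 on the opposite strand, UROS overlaps a miRNA gene on the opposite strand, and CPOX overlaps another annotated protein-coding gene on its own strand. Where the stretches are shared, the gene of origin of a read is uncertain. The median ratio was 0.549 over 9619 genes with a mean count of at least 50.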

How the data were processed

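RNA-seq libraries of K562 cells were analysed from the authors' deposited tables. Per the submitters' processing notes, the tools were Trim Galore, HISAT2 2.2.1, SAMtools 1.9, HTSeq 0.6.1, RSEM 1.3.2 and DESeq2 1.36.0, with build hg38; roles and strand setting are not given in the sources used here. The authors deposited whole-number counts per symbol and, per the file headers, expected counts, TPM and FPKM per gene. The 5 rows of reads given to no gene held 61.6% to 62.6% of each count table and were left out.

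Counts were tested in R 4.3.3 with edgeR 4.0.16 (quasi-likelihood F-test, TMM, filterByExpr by group, 12282 genes), with Benjamini-Hochberg adjustment over all genes and calls at an adjusted p under 0.05. Each standard error was the absolute log2 fold change over the root of its F statistic, and CPM values other than the HMOX1 limit are TMM-scaled. Groups came from the labels. Libraries with the same replicate number deviated together from their group means (r = 0.811, 0.757 and 0.824 over 9966 genes), so the numbers were taken to pair them, from the data alone, and blocked values are given. The biological coefficient of variation was 21.1% without and 6.36% with the block, on 4 and 3 residual degrees of freedom. Alternatives were DESeq2 1.42.0, expected counts rounded to whole numbers, limma 3.58.1 on log2(FPKM + 1) for genes of mean FPKM of at least 0.5, pseudocount 0.1, other filters, and each library left out. The interaction term, the blocked fits of each guide that leave out a library and the alternatives for list genes were chosen after seeing the data. Procedures were tested on simulated data. The members and gene lists were chosen with earlier results of these data known. Named genes were the members, ZNF410, CHD4, genes of the haem transport, breakdown, erythroid factor and ALAS1 regulator lists called with the block or called at 2-fold or more between the numbers (at most 6 per list), and the 5 most like ALAS2; HMOX1, constant at 0, gave no such genes. Other list genes and markers were named after their values were seen. A marker gene is not reported here and was left out of the erythroid marker list.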

Additional observations from a re-analysis of the deposited data

Results flagged for a closer look

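UROD and CPOX had both knockout libraries below the control in replicate 1 and both above it in replicate 2. Both differences of a number use the same control library, so their signs are not independent. The share of all genes with this change of sign was not counted. The knockout difference was 0.20 higher in replicate 2 on the log2 scale for UROD (SE 0.0966) and 0.35 higher for CPOX (SE 0.126). The interaction test called neither (edgeR adjusted p = 0.609 and 0.398). In UROD the paired log2 differences were -0.15 and -0.20 in replicate 1 and 0.04 and 0.01 in replicate 2, and in CPOX they were -0.14 and -0.09 against 0.23 and 0.24.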

How the results depend on the processing

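Calls over all genes depended on the replicate block. Without it edgeR called 0 genes in each comparison of groups; with it edgeR called 226 genes for knockout, 109 for sgRNA1, 170 for sgRNA2 and 11 between the guides. In the same order the blocked counts were 162, 53, 73 and 4 by DESeq2, 387, 178, 289 and 7 with estimated counts, and 194, 44, 94 and 2 by limma. Without the block DESeq2 called 19, 6 and 4 genes for knockout, sgRNA1 and sgRNA2, limma called 1, 1 and 1 with either pseudocount, and limma with no FPKM filter called 1, 2 and 1, and 1 between the guides. With no filter on counts edgeR called 1 gene for knockout. Leaving out each library gave 0 to 236 calls for knockout, 0 to 459 for sgRNA1 and 0 to 634 for sgRNA2, over fits without and with the block. Between the numbers DESeq2 called 3438 genes against 5529.

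In edgeR on the whole-number counts the block changed the call of FECH, for knockout and for sgRNA2, and of no other member. On the estimated counts it also changed those of ALAS2 (knockout and sgRNA2) and PPOX (knockout). No difference between the numbers changed direction in any tested member under the alternatives run. Between the guides UROS turned to 0.0859 and 0.0834 with estimated counts (with and without the block) and to 0.0853 with limma (0.0876 with pseudocount 0.1), and PPOX to -0.0539 and -0.0653 with estimated counts and to -0.0259 with limma (-0.0266 with pseudocount 0.1). The ALAD interaction term turned to -0.0190 with estimated counts and -0.0125 with limma.

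Leaving out each library reversed some log2 fold changes. For knockout the ranges, without and with the block together, were -0.58 to 0.38 for ALAD, -0.17 to 0.0178 for UROD, -0.11 to 0.23 for CPOX and -0.19 to 1.12 for FECH, whose blocked values ran from 0.25 to 0.37. For sgRNA1 they were -0.0346 to 0.31 for ALAS1, -0.87 to 1.45 for ALAS2, -0.89 to 0.25 for ALAD, -0.19 to 0.0735 for UROD, -0.15 to 0.24 for CPOX, -0.19 to 0.74 for PPOX and -0.69 to 1.10 for FECH. For sgRNA2 they were -0.31 to 1.499 for ALAS2, -0.61 to 0.51 for ALAD, -0.24 to 0.0425 for UROD, -0.10 to 0.25 for CPOX and -0.38 to 1.13 for FECH. Between the guides they were -0.0579 to 0.29 for ALAS1, -1.03 to 1.68 for ALAS2, -0.30 to 0.85 for ALAD, -0.18 to 0.0258 for UROS, -0.19 to 0.10 for UROD, -0.16 to 0.24 for CPOX, -0.32 to 0.68 for PPOX and -0.69 to 1.03 for FECH. An unpaired fit that lacks a library compares unequal shares of replicate 1 and 2. Where that leaves a group with 1 library, it is assumed to vary like the others. With 2 libraries a group, small differences could not be detected, and HMOX1 gave no value for any alternative.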
